A study of Mus musculus with 23 samples.

Results

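The genes described here encode the SR proteins, 11 genes whose symbol is Srsf followed by a number, and the heterogeneous nuclear ribonucleoproteins (hnRNPs), 20 genes whose symbol starts with Hnrnp. They were taken from the 20599 genes of the deposited expression table by symbol alone, after 2 pseudogenes were left out, and all 31 are protein coding. The cells are β-TC6, a mouse insulinoma line that secretes insulin. The 3 genotypes were compared by RNA-seq of poly(A) RNA: Bmal1-/- cells, in which exon 8 of Bmal1 was deleted with CRISPR-Cas9 and a repair template, Clock-/- cells, in which the same method removed exons 6 and 7 of the Clock gene, and WT cells with no edit, all untreated and at passages 5 to 15. The study asked whether the clock factors BMAL1 and CLOCK control alternative splicing in β cells, and it also mapped the chromatin sites of THRAP3, an RNA-binding protein, by ChIP-seq in 2 Bmal1-/- and 2 WT libraries. Each knockout line grew from 1 colony picked after drug selection, and the 3 RNA libraries of a genotype are 3 wells of that line. Because wells of 1 line are the replicates, the p-values reflect the well-to-well spread, which may be technical, and an effect of the edit cannot be told apart from a trait of the clone.

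SR proteins carry 1 or 2 RNA recognition motifs and a tail rich in arginine and serine, and they bind exonic enhancers, where they mostly favour the inclusion of an exon. hnRNPs coat nascent transcripts through RNA recognition or KH motifs and often act against SR proteins at the same exon, so that the balance of both families sets many splicing choices. Kinases of the SRPK and CLK families phosphorylate the arginine-serine tail and set where SR proteins sit in the cell. Genes of both families are known to limit their own output through transcripts with a premature stop codon that nonsense-mediated decay removes. In human β-cell lines SRSF6 is known to control the splicing of genes for insulin secretion and cell survival.

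Expression is given as TPM, a measure of transcript abundance that is scaled for transcript length and sums to 1000000 in each library. TPM sums every transcript of a gene, so a productive transcript and one fated for decay count alike, and it keeps no read depth. A gene was called higher or lower at an adjusted p under 0.01 in limma on log2(TPM + 1), with Benjamini-Hochberg adjustment over the 15031 genes that reached a TPM of 1 in at least 3 of the 9 libraries. All 31 genes passed that filter. Every log2 fold change below is on the log2(TPM + 1) scale. In bulk RNA, fewer cells that express a gene and less RNA per cell cannot be told apart.

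Arntl, the gene of BMAL1, was at 3.52, 3.32 and 3.41 TPM in Bmal1-/- cells, against 3.63, 3.52 and 4.22 TPM in WT cells, and Clock was at 36.0, 28.0 and 46.6 TPM in Clock-/- cells, against 49.7, 46.7 and 40.9 TPM in WT cells. Neither gene was called in its own knockout, and a TPM over the whole gene does not check a deletion of 1 or 2 exons. The paper screened the clones by qPCR and Western blot and reports loss of functional mRNA and protein. In Clock-/- cells Arntl was called higher than WT, at 13.2, 10.6 and 16.2 TPM and a log2 fold change of 1.57 (SE 0.15, adjusted p = 3.09e-05). Libraries of the same genotype correlated at 0.976 to 0.993 over genes and libraries of different genotypes at 0.918 to 0.952. All 10 β-cell markers, Ins2, Iapp and Pdx1 among them, were detected, and they summed to 39492 to 42191 TPM in Bmal1-/- cells, 31899 to 37902 TPM in Clock-/- cells and 54604 to 56998 TPM in WT cells, mostly as Ins2 and Iapp. In Bmal1-/- cells 6 of the 10 fell and 2 rose, and in Clock-/- cells 5 fell and 3 rose, with log2 fold changes of −5.22 for Ins1 and −3.83 for Slc2a2 in Clock-/- cells. Markers of α, δ and PP cells (3 of 5 in the table) summed to 67.6 to 76.2 TPM in Bmal1-/- cells, 1498 to 1673 TPM in Clock-/- cells and 557 to 576 TPM in WT cells. Acinar and duct markers (2 of 6) summed to 1.16 to 2.08 TPM in Bmal1-/-, 1.56 to 3.58 TPM in Clock-/- and 7.52 to 8.43 TPM in WT cells. Stromal, endothelial and immune markers (4 of 5) summed to 1.58 to 1.75 TPM in Bmal1-/-, 21.5 to 22.7 TPM in Clock-/- and 9.18 to 9.96 TPM in WT cells, with Cd68 called lower in Bmal1-/- and higher in Clock-/- cells. Between 2189 and 2691 genes were listed at 0 in the Bmal1-/- libraries, against 791 to 1010 in the Clock-/- libraries and 687 to 905 in the WT libraries. The part that these shifts have in the values below was not tested.

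Both families were abundant. In WT cells 27 of the 31 genes had a mean of at least 50 TPM, a level that 23.8% of all tested genes reached. Hnrnpa1, a shuttling repressor of exon inclusion, was the highest at 877 ± 2.94 TPM in Bmal1-/-, 779.9 ± 63.4 TPM in Clock-/- and 927 ± 59.4 TPM in WT cells (SD, n = 3 each). Srsf12, a relative of Srsf10 that is scarce in most tissues, was the lowest at 2.37 ± 0.881 TPM in Bmal1-/-, 7.08 ± 1.54 TPM in Clock-/- and 3.00 ± 0.197 TPM in WT cells (SD, n = 3 each). The other genes lay between 24.3 TPM (Srsf1) and 687 TPM (Hnrnpab) in WT cells.

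**Figure D1:**
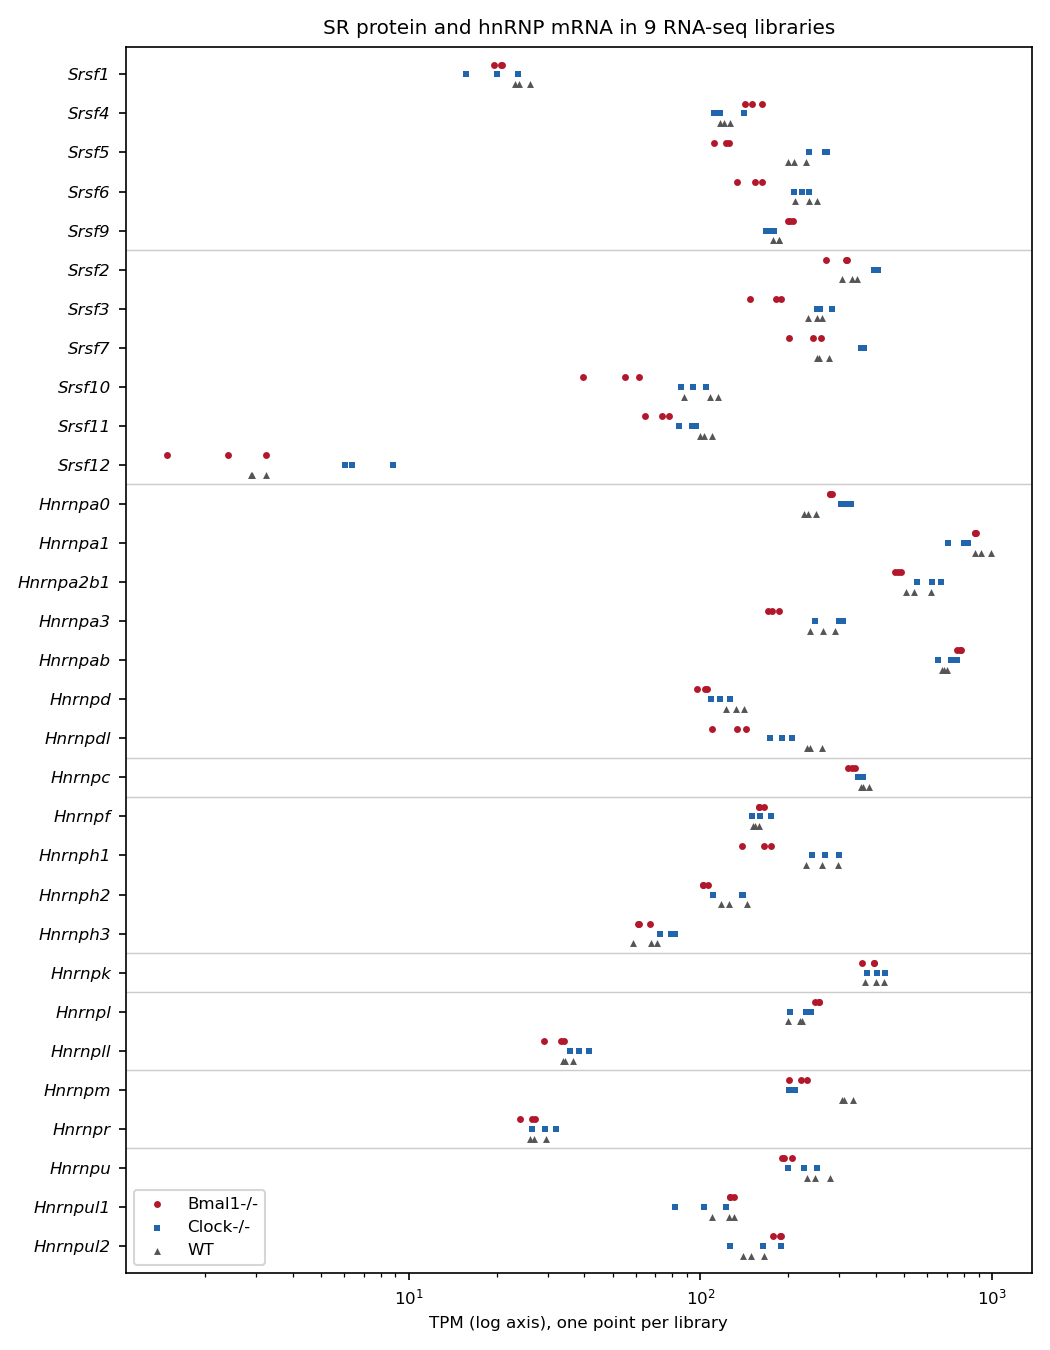
TPM on a log axis of each of the 31 genes in 9 RNA-seq libraries, grouped by protein family, with 1 point per library (Bmal1-/- circles, Clock-/- squares, WT triangles). Srsf5 lies at 112 to 126 TPM in Bmal1-/-, 237 to 272 TPM in Clock-/- and 199.9 to 231 TPM in WT libraries, and the 3 ranges do not overlap.

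The summed mRNA of the 11 SR protein genes was below WT in every Bmal1-/- library and above WT in every Clock-/- library. It came to 1482 ± 114 TPM in Bmal1-/-, 2018 ± 54.0 TPM in Clock-/- and 1823 ± 97.5 TPM in WT cells (SD, n = 3 each), which is 0.813 times WT in Bmal1-/- and 1.11 times WT in Clock-/- cells. All 3 Bmal1-/- libraries (1356, 1577 and 1513 TPM) were below every WT library (1924, 1814 and 1730 TPM), and all 3 Clock-/- libraries (2007, 1970 and 2076 TPM) were above them. The 20 hnRNP genes summed to 5055 ± 63.5 TPM in Bmal1-/-, 5398 ± 428 TPM in Clock-/- and 5543 ± 340 TPM in WT cells (SD, n = 3 each), or 0.912 times WT in Bmal1-/- and 0.974 times WT in Clock-/- cells. With median-of-ratios scaling the hnRNP sum was 0.920 times WT in Bmal1-/- and 1.00 times WT in Clock-/- cells, so the Clock-/- sum showed no direction apart from the scaling. The Clock-/- hnRNP sums overlapped those of WT cells, while the Bmal1-/- sums, 4983 to 5100 TPM, lay below the WT range of 5246 to 5915 TPM. These sums hold only genes whose symbol starts with Hnrnp. The 15 hnRNP and related genes under other symbols, listed below, went the other way in Bmal1-/- cells. They summed to 3359 to 3417 TPM in Bmal1-/-, 2538 to 2959 TPM in Clock-/- and 2615 to 2751 TPM in WT libraries. A few abundant genes carry the family sums, and no test was applied to any of these sums.

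**Figure D2:**
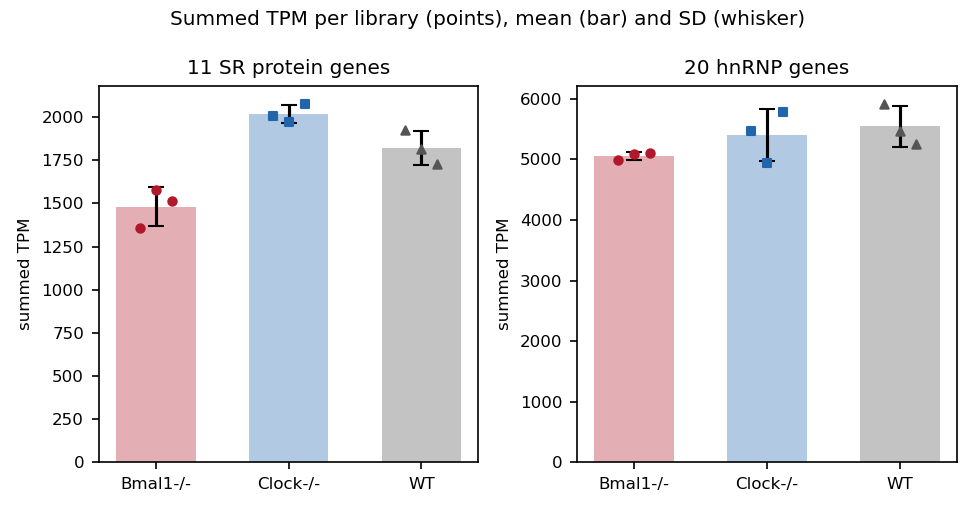
Summed TPM of the 11 SR protein genes (left) and the 20 hnRNP genes (right) in Bmal1-/-, Clock-/- and WT cells, with 1 point per library, the mean as a bar and the SD as a whisker. SR protein mRNA sums to 1482 TPM in Bmal1-/-, 2018 TPM in Clock-/- and 1823 TPM in WT cells.

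The first question was which of these genes differ between Bmal1-/- and WT cells. The 10 genes that fell were Srsf3, Srsf5, Srsf6, Srsf10, Srsf11, Hnrnpa3, Hnrnpd, Hnrnpdl, Hnrnph1 and Hnrnpm. One gene, Hnrnpa0, rose, and 20 were not called. Among all tested genes 21.0% were lower and 18.4% higher in Bmal1-/- cells, so the 31 genes, at 32.3% lower and 3.23% higher, leaned further downward than the whole table. Among the 3633 tested genes with a mean of at least 50 TPM, 23.7% were lower and 26.3% higher. By family, 5 of 11 SR protein genes fell and limma called 0 higher (2 were higher at an unadjusted p under 0.05), and 5 of 20 hnRNP genes fell and 1 rose. The median log2 fold change was −0.28 over SR protein genes and −0.10 over hnRNP genes, against −0.04 over all tested genes. No gene of either family passed an absolute log2 fold change of 1, which 7.97% of all tested genes did downward and 3.83% upward. Srsf10 missed that limit narrowly, at −0.994, and went as far as −1.13 among the alternative settings. All Bmal1-/- libraries lay below all WT libraries for 15 of the 31 genes and above them for 7, where 35.1% and 32.0% of all tested genes did so.

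The largest fall was that of Srsf10 (ENSMUSG00000028676, chromosome 4 from 135855747 to 135869908, plus strand of mm10), whose protein turns into a general repressor of splicing when it is dephosphorylated, as after heat shock. Srsf10 was at 39.6, 61.7 and 55.0 TPM in Bmal1-/- cells, against 115, 108 and 88.1 TPM in WT cells. The groups did not overlap, although the first Bmal1-/- library was well below the other 2. The log2 fold change was −0.99 (SE 0.16, adjusted p = 0.000551), or 0.502 times WT. In Clock-/- cells Srsf10 was at 94.2, 85.9 and 105 TPM and was not called against WT, at −0.12 (SE 0.16, adjusted p = 0.589).

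Srsf5 (ENSMUSG00000021134, chromosome 12 from 80945504 to 80950507, plus strand) belongs with Srsf4 and Srsf6 to the SR proteins with a pair of RNA recognition motifs. It was at 112, 126 and 122 TPM in Bmal1-/- cells, against 231, 210.1 and 199.9 TPM in WT cells, a log2 fold change of −0.83 (SE 0.08, adjusted p = 2.36e-05). Its close relative Srsf6 was at 134, 163 and 154 TPM in Bmal1-/- and 251, 236 and 211 TPM in WT cells, at −0.63 (SE 0.09, adjusted p = 0.000282). Neither gene overlapped between the genotypes. Srsf4, the third of these relatives, stood at 163, 151 and 142 TPM in Bmal1-/- and 120.1, 116 and 126 TPM in WT cells and was not called, at 0.33 (SE 0.09, adjusted p = 0.014). An annotated transcript on the opposite strand covers 43.0% of the exonic bases of Srsf4.

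Srsf3, the smallest SR protein and an adaptor for mRNA export, was at 148, 189.6 and 181 TPM in Bmal1-/- cells and 261, 251 and 235 TPM in WT cells. Its log2 fold change was −0.53 (SE 0.10, adjusted p = 0.00114). Srsf11 was at 64.4, 77.9 and 73.9 TPM in Bmal1-/- cells and 109.8, 103 and 99.9 TPM in WT cells, at −0.53 (SE 0.09, adjusted p = 0.00058). Both genes were lower in every Bmal1-/- library than in any WT library. For 8 of the 10 genes that fell, the first Bmal1-/- library was the lowest of the 3, and this was also so for 8 of the 11 SR protein genes.

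The remaining SR protein genes were not called in Bmal1-/- cells. Srsf1, the founding member of the family, averaged 20.4 ± 0.709 TPM in Bmal1-/- and 24.3 ± 1.54 TPM in WT cells, at a log2 fold change of −0.24 (SE 0.13, adjusted p = 0.14). Srsf2, which concentrates in nuclear speckles, averaged 302 ± 28.4 TPM in Bmal1-/- and 327 ± 20.1 TPM in WT cells, at −0.12 (SE 0.08, adjusted p = 0.215). Srsf7, an export adaptor like Srsf3, was at −0.16 (SE 0.09, adjusted p = 0.164), Srsf9 at 0.15 (SE 0.05, adjusted p = 0.0342) and Srsf12 at −0.28 (SE 0.20, adjusted p = 0.274). Chromosome 11, which carries Srsf1, Srsf2, Hnrnpab and Hnrnph1, had a median log2 fold change of 0.35 over its 1201 tested genes in Bmal1-/- cells. With the median of each gene's own chromosome subtracted, Srsf1 was at −0.60 (adjusted p = 0.000511) and Srsf2 at −0.48 (adjusted p = 0.000752), and both were then called lower.

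Among hnRNP genes the largest fall was that of Hnrnpdl (ENSMUSG00000029328, chromosome 5 from 100033577 to 100039664, minus strand), a relative of the AU-rich element binding protein hnRNP D. Hnrnpdl was at 110.0, 143 and 133 TPM in Bmal1-/- cells, against 261, 238 and 231 TPM in WT cells. The highest Bmal1-/- library was well below the lowest WT library, and the log2 fold change was −0.92 (SE 0.10, adjusted p = 5.44e-05), or 0.528 times WT. Hnrnpd itself was at 97.5, 106 and 103 TPM in Bmal1-/- and 141, 133 and 122 TPM in WT cells, at −0.36 (SE 0.08, adjusted p = 0.00293). That call was lost in 5 of 16 alternative settings, among them the fits without Bmal1-/- replicate 1 or 3 or WT replicate 1 or 2, up to an adjusted p of 0.0145.

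Hnrnph1 (ENSMUSG00000007850, chromosome 11 from 50376990 to 50386528, plus strand) binds runs of guanine, as do Hnrnpf, Hnrnph2 and Hnrnph3. It was at 139, 175 and 165 TPM in Bmal1-/- cells, against 297, 261 and 231 TPM in WT cells, with no overlap, and its log2 fold change was −0.72 (SE 0.12, adjusted p = 0.000649). With the median of chromosome 11 subtracted the value was −1.07 (adjusted p = 1.556e-05). The other 3 members of this subgroup were not called: Hnrnpf was at 0.05, Hnrnph2 at −0.31 and Hnrnph3 at −0.05. Hnrnph1 and Hnrnph2 are close in sequence, and how reads that match both were counted is not given in the sources used here.

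Of the hnRNP A/B genes, whose proteins carry a pair of RNA recognition motifs and include known promoters of exon skipping, Hnrnpa3 fell and Hnrnpa0 rose. Hnrnpa3 was at 187, 171 and 176 TPM in Bmal1-/- and 289, 263 and 239 TPM in WT cells, at −0.56 (SE 0.10, adjusted p = 0.000833). Hnrnpa0, a gene without introns, was at 278, 282 and 278 TPM in Bmal1-/- and 250.2, 226 and 234 TPM in WT cells, at 0.24 (SE 0.06, adjusted p = 0.00617). Although its groups did not overlap, the call for Hnrnpa0 was lost in 7 of 16 alternatives, among them the fits without any 1 Bmal1-/- library or without WT replicate 2 or 3, up to an adjusted p of 0.034. Hnrnpa1, Hnrnpa2b1 and Hnrnpab were not called, at −0.08, −0.22 and 0.17. Genes of this subgroup have many processed copies in the mouse genome, so reads may be shared with those copies and the levels are uncertain to that degree.

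Hnrnpm (ENSMUSG00000059208, chromosome 17 from 33646233 to 33686860, minus strand), which binds GU-rich RNA, fell to 232, 201 and 222 TPM in Bmal1-/- cells, against 335, 307 and 312 TPM in WT cells. Its log2 fold change was −0.54 (SE 0.07, adjusted p = 0.000109). No call was made in Bmal1-/- cells for the remaining hnRNP genes, whose log2 fold changes were −0.14 for Hnrnpc, −0.06 for the poly(C)-binding Hnrnpk, 0.24 for the CA-repeat binding Hnrnpl, −0.12 for Hnrnpll and −0.08 for Hnrnpr. In the hnRNP U group, Hnrnpu, a nuclear matrix protein, was at 191, 194 and 206 TPM in Bmal1-/- and 278, 248 and 231 TPM in WT cells. Its log2 fold change of −0.35 had an adjusted p of 0.0100168, just above the threshold. The median over the 932 tested genes of chromosome 1, which carries Hnrnpu, was also −0.35 in Bmal1-/- cells. Hnrnpul1 was at 0.07 and Hnrnpul2 at 0.29, neither called.

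**Figure D3:**
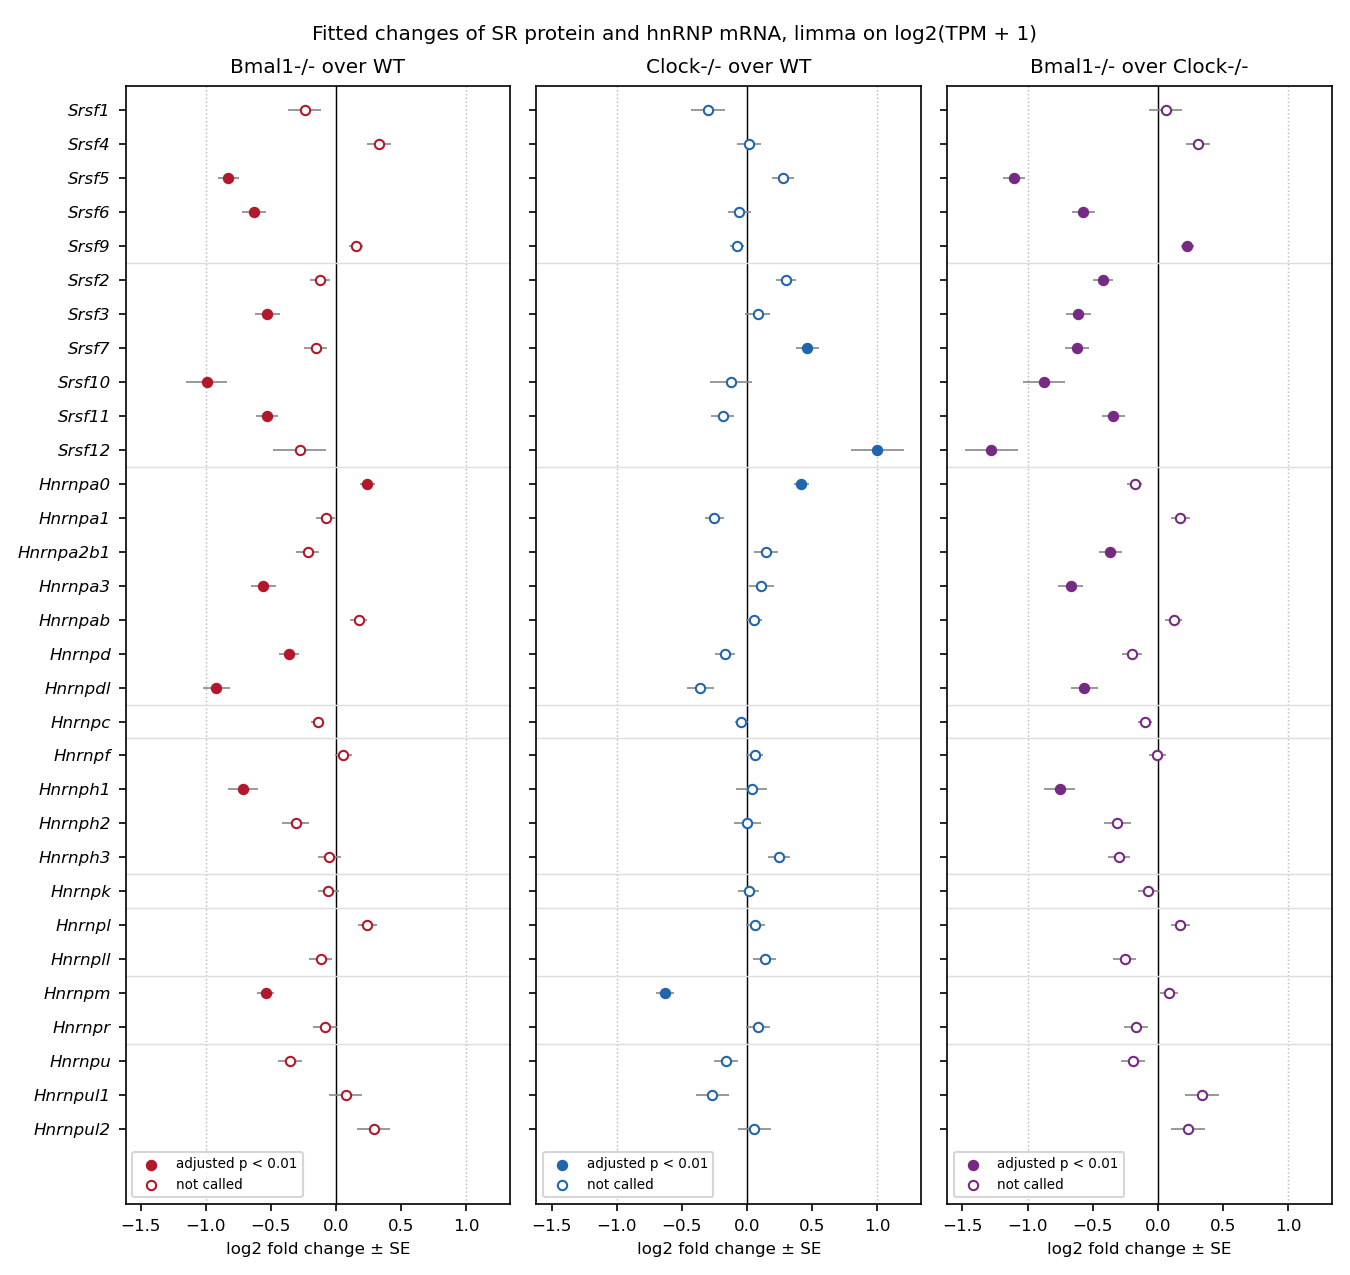
Fitted log2 fold changes with SE of the 31 genes in 3 comparisons (Bmal1-/- over WT, Clock-/- over WT, Bmal1-/- over Clock-/-), with filled points at an adjusted p under 0.01 and dotted lines at an absolute log2 fold change of 1. In Bmal1-/- against WT 10 points are filled on the left and 1 on the right, in Clock-/- against WT 1 and 3, and in Bmal1-/- against Clock-/- 12 and 1.

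The same question was asked of Clock-/- cells, with the same WT libraries as the reference. Srsf7, Srsf12 and Hnrnpa0 rose (3 genes), Hnrnpm fell, and 27 were not called. Among all tested genes 9.50% were higher and 14.4% lower in Clock-/- cells, so 9.68% of the 31 genes higher was close to the background and 3.23% lower was below it. Among tested genes with a mean of at least 50 TPM, 12.8% were higher and 16.6% lower. The median log2 fold change was 0.02 over SR protein genes and 0.05 over hnRNP genes, against −0.02 over all tested genes. No member passed an absolute log2 fold change of 1, which 4.78% of all tested genes did downward and 2.62% upward. Srsf12 missed that limit narrowly, at 0.9997, and went as far as 1.19 among the alternative settings. All 3 Clock-/- libraries lay above the WT libraries for 6 genes and below them for 4, where 20.7% and 25.8% of all tested genes did so.

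Srsf12 (ENSMUSG00000054679, chromosome 4 from 33208991 to 33233340, plus strand) was at 6.37, 6.03 and 8.85 TPM in Clock-/- cells, against 3.23, 2.87 and 2.90 TPM in WT cells. Every Clock-/- library was above every WT library, and the log2 fold change was 1.00 (SE 0.20, adjusted p = 0.00374). The call was lost in 4 of 15 alternatives, each of which left out 1 library (Clock-/- replicate 1 or any WT replicate), up to an adjusted p of 0.0166. In Bmal1-/- cells the 3 libraries, at 1.48, 2.40 and 3.24 TPM, were spread over more than the WT range.

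Srsf7 (ENSMUSG00000024097, chromosome 17 from 80200080 to 80207307, minus strand) carries a zinc knuckle beside its RNA recognition motif. It was at 365, 356 and 359.7 TPM in Clock-/- cells, against 276, 255 and 252 TPM in WT cells, at 0.46 (SE 0.09, adjusted p = 0.00272). The call was lost when 1 of 3 libraries was left out (Clock-/- replicate 1 or WT replicate 2 or 3), up to an adjusted p of 0.0142. Hnrnpa0 (ENSMUSG00000007836, chromosome 13 from 58125879 to 58128556, minus strand) was at 317, 305 and 327 TPM in Clock-/- cells, against the WT values given above, at 0.42 (SE 0.06, adjusted p = 0.000401), and was called in all 16 alternatives.

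Hnrnpm was at 202, 211 and 202 TPM in Clock-/- cells, against 335, 307 and 312 TPM in WT cells, at −0.63 (SE 0.07, adjusted p = 7.78e-05). Of the 31 genes it alone was called lower than WT in both knockouts, and Hnrnpa0 alone was called higher in both. Because both comparisons rest on the same 3 WT libraries, a shared direction is not independent evidence. Part of Hnrnpm (14.7% of its exonic bases) is also annotated as March2 on the same strand. The 3 SR protein genes next in size in Clock-/- cells were not called: Srsf1 at −0.30 (SE 0.13, adjusted p = 0.0942), Srsf2 at 0.30 (SE 0.08, adjusted p = 0.0135) and Srsf5 at 0.28 (SE 0.08, adjusted p = 0.0232). Hnrnpdl, at −0.36 (SE 0.10, adjusted p = 0.0212), and Hnrnpa1, at −0.25 (SE 0.07, adjusted p = 0.0233), were lower in every Clock-/- than in any WT library without passing the threshold. In Clock-/- cells the median log2 fold change was −0.26 over chromosome 5, which carries Hnrnpdl. It was −0.28 over chromosome 15, which carries Hnrnpa1.

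The direct comparison of Bmal1-/- with Clock-/- cells tests whether the knockouts differ. Here 12 of the 31 genes were lower in Bmal1-/- cells, 1 was higher and 18 were not called. Of all tested genes, 21.8% were lower and 22.8% higher, and of the 31 genes 38.7% were lower and 3.23% higher. Among tested genes with a mean of at least 50 TPM, 24.4% were lower and 28.4% higher. The SR protein genes made up 8 of the 12: Srsf2, Srsf3, Srsf5, Srsf6, Srsf7, Srsf10, Srsf11 and Srsf12. All 6 SR protein genes with a single RNA recognition motif were lower in Bmal1-/- cells, at log2 fold changes of −1.28 to −0.34. All Bmal1-/- libraries lay below all Clock-/- libraries for 18 of the 31 genes and above them for 6, where 31.1% and 31.9% of all tested genes did so. The median was −0.57 over SR protein genes and −0.17 over hnRNP genes, against −0.01 over all tested genes.

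Srsf12 differed the most, at −1.28 (SE 0.20, adjusted p = 0.000462), or 0.412 times Clock-/- on the scale of TPM + 1. Its means were 2.37 TPM in Bmal1-/- and 7.08 TPM in Clock-/- cells, so at this low level the added 1 makes the change look smaller than in TPM. Srsf5, at 112, 126 and 122 TPM in Bmal1-/- and 269, 237 and 272 TPM in Clock-/- cells, was at −1.10 (SE 0.08, adjusted p = 3.3e-06) and kept its call in all 16 alternatives. These were the 2 genes past an absolute log2 fold change of 1, which 8.27% of all tested genes passed downward and 6.25% upward. Srsf10 was at −0.87 (SE 0.16, adjusted p = 0.00113). Srsf7, at 201, 259.8 and 244 TPM in Bmal1-/- and 365, 356 and 359.7 TPM in Clock-/- cells, was at −0.62 (SE 0.09, adjusted p = 0.000241), and its groups lay far apart beside their own spread. Srsf3 was at −0.61 (SE 0.10, adjusted p = 0.000413) and Srsf6 at −0.57 (SE 0.09, adjusted p = 0.000466). Srsf2, at 269, 319.6 and 316 TPM in Bmal1-/- and 395, 408 and 403 TPM in Clock-/- cells, was at −0.42 (SE 0.08, adjusted p = 0.0012).

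Of the hnRNP genes 4 were lower in Bmal1-/- than in Clock-/- cells. Hnrnph1, at 139, 175 and 165 TPM in Bmal1-/- and 268, 242 and 299 TPM in Clock-/- cells, was at −0.75 (SE 0.12, adjusted p = 0.000421). Hnrnpdl, at 110.0, 143 and 133 TPM in Bmal1-/- and 191, 174 and 205 TPM in Clock-/- cells, was at −0.56 (SE 0.10, adjusted p = 0.0011). Hnrnpa3 was at −0.67 (SE 0.10, adjusted p = 0.000242), and each of these 3 genes was called in all 16 alternatives. Hnrnpa2b1, at 476, 466 and 486 TPM in Bmal1-/- and 624, 553 and 669.8 TPM in Clock-/- cells, was at −0.37 (SE 0.09, adjusted p = 0.00572) and lost its call in 7 of 16 alternatives, up to an adjusted p of 0.0218. Among them were the fits without any 1 Bmal1-/- library or without Clock-/- replicate 1 or 3. Srsf11, at −0.34 (adjusted p = 0.00675), lost its call in 8, up to an adjusted p of 0.0265. Among them were the fits without replicate 1 or 3 of either knockout and the fit with chromosome medians subtracted. The gene that was higher, Srsf9, was at 204, 208 and 199 TPM in Bmal1-/- and 168, 174 and 179 TPM in Clock-/- cells, at 0.23 (SE 0.05, adjusted p = 0.0045). Srsf9 lost its call in 9 of 16 alternatives, up to an adjusted p of 0.237. Among them were the fits without any 1 Bmal1-/- library or without Clock-/- replicate 1, and the fit with chromosome medians subtracted. For Hnrnpm the difference between the knockouts was 0.09 (SE 0.07, adjusted p = 0.288) and was not called.

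Clk1 and Clk4, which encode kinases of SR proteins, fell in Bmal1-/- cells with larger fitted changes than any SR protein gene. Of 11 tested genes in a list of SR protein kinases and a phosphatase, 5 fell and 2 rose in Bmal1-/- cells, and 2 fell and 1 rose in Clock-/- cells, with medians of −0.25 and 0.02. Over all tested genes the shares were 21.0% lower and 18.4% higher in Bmal1-/- cells and 14.4% lower and 9.50% higher in Clock-/- cells, and these are the background for this list and the 5 that follow. Clk1, a nuclear kinase that releases SR proteins from speckles, was at 14.9, 25.8 and 22.0 TPM in Bmal1-/- and 60.3, 53.0 and 48.0 TPM in WT cells, at −1.35 (SE 0.18, adjusted p = 0.000189). Its relative Clk4, named after its values were seen, averaged 18.7 ± 3.48 TPM in Bmal1-/- and 44.2 ± 5.53 TPM in WT cells (SD, n = 3 each), at −1.21 (SE 0.14, adjusted p = 8.4e-05). Both were also lower in Bmal1-/- than in Clock-/- cells, at −1.33 (SE 0.18, adjusted p = 0.000188) and −1.38 (SE 0.14, adjusted p = 3.13e-05). Dyrk1b, a kinase of the DYRK family, rose to 61.2, 56.2 and 57.2 TPM in Bmal1-/- cells, against 20.8, 24.1 and 19.0 TPM in WT cells, at 1.42 (SE 0.10, adjusted p = 3.74e-06).

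In Clock-/- cells the 2 largest called changes of that list were those of Dyrk1a, at −0.59 (SE 0.13, adjusted p = 0.00666), and Srpk1, at −0.55 (SE 0.09, adjusted p = 0.000863). Srpk1, the cytoplasmic kinase that readies SR proteins for nuclear import, was at 30.6, 30.2 and 30.7 TPM in Bmal1-/-, 33.4, 28.3 and 34.1 TPM in Clock-/- and 50.3, 46.5 and 44.2 TPM in WT cells. It was thus lower than WT in both knockouts, at −0.60 (adjusted p = 0.000254) in Bmal1-/- cells.

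SR-related proteins share the arginine-serine tail without being classical SR proteins. In Bmal1-/- cells 7 of the 19 tested genes fell and 1 rose, and in Clock-/- cells 1 fell, with medians of −0.26 and −0.02. Srek1, a regulatory SR-like protein, was at 14.9, 19.9 and 18.5 TPM in Bmal1-/- and 53.3, 47.0 and 42.0 TPM in WT cells, at −1.37 (SE 0.14, adjusted p = 3.52e-05). Rbm39, a relative of the splice site factor U2AF65, was at 103, 129 and 124 TPM in Bmal1-/- and 226, 206 and 199 TPM in WT cells, at −0.83 (SE 0.11, adjusted p = 0.000144). Both were also lower in Bmal1-/- than in Clock-/- cells, at −1.39 and −0.88. Son, a scaffold of nuclear speckles, was the gene that fell in Clock-/- cells, at −0.45 (SE 0.10, adjusted p = 0.00705). Thrap3 itself was at 77.9, 79.6 and 81.3 TPM in Bmal1-/- and 86.4, 86.6 and 72.7 TPM in WT cells and was not called, at −0.04 (SE 0.15, adjusted p = 0.852).

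A further list held 15 tested genes of hnRNPs and related RNA-binding proteins under other symbols, Sfpq, Nono and Elavl1 among them. Of these 15, 6 rose (40.0%, against 18.4% of all tested genes) and 2 fell (13.3%, against 21.0%) in Bmal1-/- cells, with a median of 0.18. In Clock-/- cells 1 rose and 1 fell. Rbmx, which encodes hnRNP G, was at 37.0, 43.0 and 43.1 TPM in Bmal1-/- and 82.2, 81.9 and 76.2 TPM in WT cells, at −0.95 (SE 0.09, adjusted p = 1.64e-05), and also fell in Clock-/- cells, at −0.40 (SE 0.09, adjusted p = 0.00612). Pcbp3, a poly(C)-binding protein, was at 87.3, 83.9 and 85.1 TPM in Bmal1-/- and 48.5, 45.7 and 44.8 TPM in WT cells, at 0.87 (SE 0.11, adjusted p = 0.000149). Cirbp, an RNA-binding protein induced by cold, rose in Clock-/- cells, at 0.55 (SE 0.09, adjusted p = 0.000842).

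**Figure D4:**
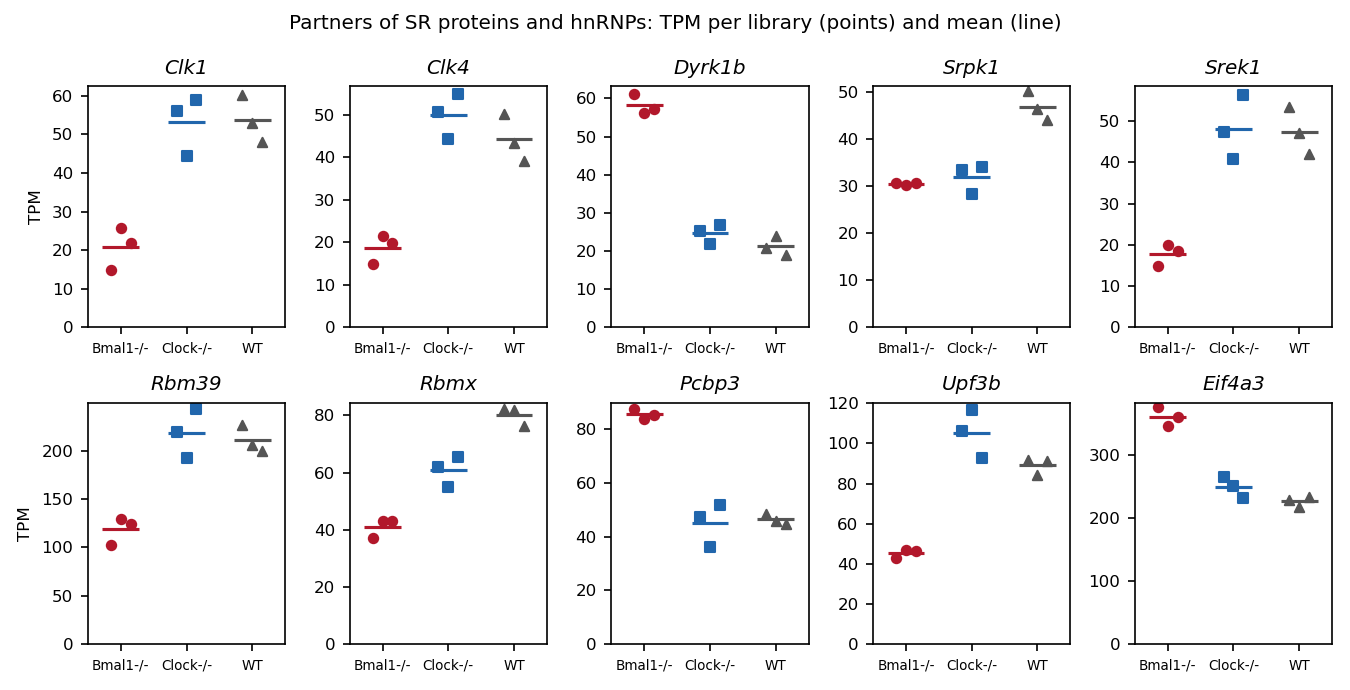
TPM per library (points) and mean (line) of 10 partners of SR proteins and hnRNPs in Bmal1-/-, Clock-/- and WT cells, each on a linear axis from 0. Clk1, Clk4, Srek1, Rbm39, Rbmx and Upf3b lie lower in the 3 Bmal1-/- libraries than in all Clock-/- and WT libraries, and Dyrk1b, Pcbp3 and Eif4a3 lie higher.

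Of 23 genes for splice site recognition and the spliceosome, 6 rose (26.1%, against 18.4% of all tested genes) and 4 fell (17.4%, against 21.0%) in Bmal1-/- cells and 1 fell in Clock-/- cells, with medians of 0.13 and −0.11. The shares in Bmal1-/- cells were near the background. Eftud2, a GTPase of the U5 particle, was at 0.72 (SE 0.08, adjusted p = 4.74e-05) and Snrpb2, a protein of the U2 particle, at −0.70 (SE 0.13, adjusted p = 0.00112) in Bmal1-/- cells. Snrpa1, also of the U2 particle, fell in Clock-/- cells, at −0.38 (SE 0.07, adjusted p = 0.00211). Of 15 genes of nonsense-mediated decay, 4 rose and 2 fell in Bmal1-/- cells, and in Clock-/- cells limma called 0 of 15, with 3 higher and 2 lower at an unadjusted p under 0.05. Upf3b, which links the exon junction complex to decay, was at 43.0, 46.7 and 46.3 TPM in Bmal1-/- and 91.7, 84.2 and 91.1 TPM in WT cells, at −0.96 (SE 0.09, adjusted p = 1.47e-05). Eif4a3, the core helicase of that complex, was at 375, 345 and 359.7 TPM in Bmal1-/- and 229, 217 and 233 TPM in WT cells, at 0.67 (SE 0.07, adjusted p = 2.54e-05).

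Of 7 import and export factors, 1 rose in each knockout. Alyref, an mRNA export adaptor, was at 0.40 (SE 0.06, adjusted p = 0.000218) in Bmal1-/- cells. Hikeshi, known as the importer of HSP70 proteins rather than of SR proteins, was at 0.87 (SE 0.12, adjusted p = 0.000409) in Clock-/- cells.

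The second data set asked where THRAP3 sits on chromatin. Peaks had been called in each library by HOMER against the pooled input of the genotype, and a promoter peak is one whose centre lies from 1000 bases before to 100 bases after an annotated transcript start. The lists differed in length, with 12949 and 12226 peaks in the Bmal1-/- libraries, against 808 and 6128 in the WT libraries, at depths of 12296107 to 14961095 tags. The share of tags in peaks was 1.86% and 1.67% in Bmal1-/- and 0.11% and 0.76% in WT libraries. With 2 libraries a genotype no test was made, and the genotype cannot be told apart from the yield of each precipitation.

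Promoter peaks were found at 17 and 18 of the 31 genes in the Bmal1-/- libraries, against 1 and 11 in the WT libraries. Of all tested genes, 28.7% and 23.9% had such a peak in the Bmal1-/- libraries, against 1.17% and 10.4% in the WT libraries. Of genes with a mean of at least 50 TPM the shares were 39.7% and 33.4% in the Bmal1-/- and 1.79% and 15.3% in the WT libraries. The members have a median of 7 annotated starts, against 4 for all tested genes, which gives them more windows. Counted at the start of the gene alone, 11 and 12 had a peak in the Bmal1-/- libraries, against 0 and 4 in the WT libraries, beside 20.2% and 17.0% of tested genes in the Bmal1-/- and 0.775% and 6.59% in the WT libraries. At equal list lengths of 808 peaks the counts were 1 and 2 in the Bmal1-/- libraries, against 1 and 0 in the WT libraries, and the shares of all tested genes were 1.84% and 1.36% in the Bmal1-/- and 1.17% and 1.23% in the WT libraries. Counts this low are near that background.

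Peak signal, in tags per 10000000 tags of the library, had a median of 18.1 and 17.35 over the members with a peak in the Bmal1-/- libraries, and 10.9 in the second WT library. The highest was at Hnrnpa2b1, at 24.3 in Bmal1-/- replicate 1. Fold over input ran from 4.03 at Srsf6 to 46.9 at Srsf1 in the Bmal1-/- libraries, where the caller's own minimum is 4. Srsf1 had the highest fold over input in both Bmal1-/- libraries, at 46.9 and 44.5, and no promoter peak in either WT list. Its signals, 20.4 in Bmal1-/- replicate 1 and 19.4 in replicate 2, were not the highest. Hnrnpa2b1 reached 24.3 in replicate 1 and Hnrnpl 22.7 in replicate 2. The ratio also depends on the input tags, and the part that a low input has in it was not tested.

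A peak in at least 1 library was found at 24 of the 31 genes, where 40.7% of all tested genes and 56.0% of those at 50 TPM or more had one. No library had a promoter peak at 7 genes: Hnrnpc, Hnrnpdl, Hnrnpm, Hnrnpul2, Srsf3, Srsf9 and Srsf12. A single library gave a peak at Hnrnpa0, Hnrnph1 and Srsf4 (WT replicate 2), at Hnrnpa2b1 and Hnrnpd (Bmal1-/- replicate 1) and at Hnrnph2, Hnrnpll and Srsf5 (Bmal1-/- replicate 2). Both Bmal1-/- libraries had one at 14 genes, beside 15.1% of all tested genes and 21.4% of those at 50 TPM or more, and at 10 of these genes the peaks overlapped. Among the 10 genes whose mRNA fell in Bmal1-/- cells, 4 (Srsf6, Srsf10, Srsf11 and Hnrnpa3) had a peak in both Bmal1-/- libraries, against 10 of the other 21. Several promoters are shared with a neighbour on the other strand, such as Srsf11 with Lrrc40 (23 bases between starts), Hnrnpk with Rmi1 (51 bases) and Srsf2 with Mfsd11 (201 bases), and a peak there cannot be assigned to one gene.

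**Figure D5:**
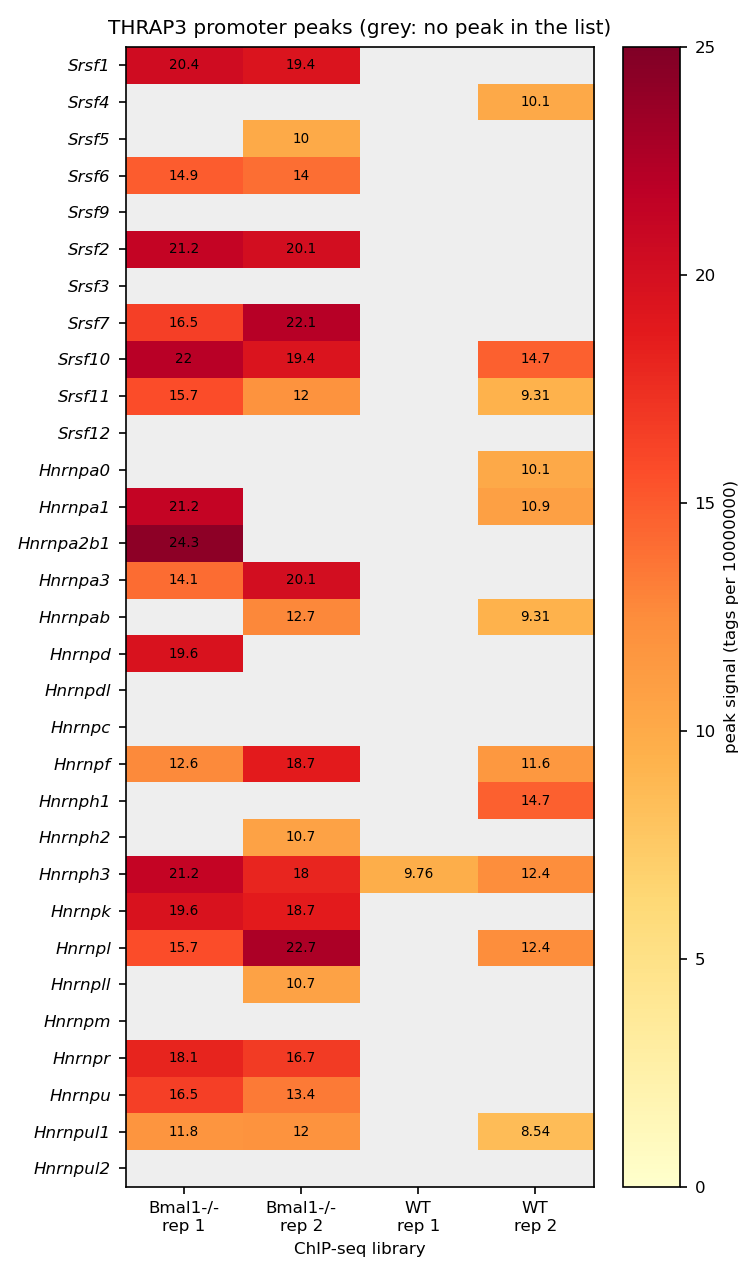
Signal (tags per 10000000) of the strongest THRAP3 promoter peak at each of the 31 genes in 2 Bmal1-/- and 2 WT ChIP-seq libraries, with grey where the list holds no promoter peak. Peaks are listed at 17 and 18 genes in Bmal1-/- and at 1 and 11 genes in WT libraries.

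Hnrnph3 was the gene with a promoter peak in all 4 libraries, a pattern that 0.641% of all tested genes and 0.909% of those at 50 TPM or more had. Its strongest signals were 21.2 and 18.0 in the Bmal1-/- libraries, against 9.76 and 12.4 in the WT libraries. These peaks stand at 4.87 and 20.7 times input in the Bmal1-/- and at 4.04 and 5.14 in the WT libraries. All but the 20.7 are near the caller's minimum of 4. At a fold over input of at least 8, neither WT list held a promoter peak of Hnrnph3. The peaks were not at one place, since those of the WT libraries shared 141 bases with each other and at most 4 with those of the Bmal1-/- libraries. The 21.2 peak lay from 63023991 to 63024239 and the 18.0 peak from 63016984 to 63017228, near another start of the gene. Bmal1-/- replicate 1 had a second peak that shared 170 bases with the 18.0 peak. Pbld2 starts 98 bases from a start of Hnrnph3 on the other strand. The promoter window of Hnrnph3 (RefSeq, GRCm38.p6, from 250 bases before to 50 after the start), shown because every list holds a peak at a start of this gene, has in capitals the 113 bases under both WT peaks.
Hnrnph3 (chr10:63023800-63024099, minus strand): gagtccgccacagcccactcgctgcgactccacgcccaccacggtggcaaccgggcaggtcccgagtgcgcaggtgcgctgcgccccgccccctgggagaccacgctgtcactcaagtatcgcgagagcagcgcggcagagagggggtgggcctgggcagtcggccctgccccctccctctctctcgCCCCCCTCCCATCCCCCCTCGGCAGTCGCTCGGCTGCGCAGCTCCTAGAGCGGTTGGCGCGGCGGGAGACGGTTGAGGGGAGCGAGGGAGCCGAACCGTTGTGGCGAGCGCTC

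Srsf10, the gene with the largest fall in Bmal1-/- cells, had peaks at signals of 22.0 and 19.4 in the Bmal1-/- libraries and 14.7 in WT replicate 2. The WT peak shared 14 bases with the peak of Bmal1-/- replicate 1 and 0 with that of replicate 2. The window of Srsf10, shown for comparison and chosen after its values were seen, has in capitals the 148 bases under both Bmal1-/- peaks. These stand at 5.05 and 4.61 times input, near the minimum of the caller.
Srsf10 (chr4:135855821-135856120, plus strand): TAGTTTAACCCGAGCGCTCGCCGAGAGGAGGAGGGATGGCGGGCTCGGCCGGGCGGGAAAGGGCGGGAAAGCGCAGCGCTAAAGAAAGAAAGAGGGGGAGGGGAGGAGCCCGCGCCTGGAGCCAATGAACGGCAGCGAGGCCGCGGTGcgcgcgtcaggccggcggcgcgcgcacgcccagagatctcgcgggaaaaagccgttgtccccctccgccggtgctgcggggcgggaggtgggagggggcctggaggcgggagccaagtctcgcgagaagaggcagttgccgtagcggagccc

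BMAL1 and CLOCK bind together to the E-box, so the same promoter windows (RefSeq, GRCm38.p6) were searched for its canonical form CACGTG, which reads the same on both strands. Of 29 genes with a window, 5 (17.2%) held the motif, against 8.09% of all 27025 genes with one. Some genes have several windows, which gives them more places for a match. Counted by window, 5 of 41 held the motif, against 7.15% of all 32851 windows. Of the 5 genes with the motif, Hnrnpa3, Hnrnpd and Hnrnpm were lower in Bmal1-/- cells, while Hnrnpf and Hnrnph2 were not called. The motif lies 18 bases before the start in Hnrnpa3, 32 before in Hnrnpd and 79 before a start of Hnrnpf, which has several windows. It lies 16 bases after the start in Hnrnph2 and 14 after in Hnrnpm. The 30 bases around each are shown with the motif in capitals, because the E-box is the element that both deleted factors are known to bind. A match is a description of the sequence and not evidence of binding.
Hnrnpa3 (chr2:75659229-75659258, plus strand): cggatagcacatCACGTGgtgactggcccc
Hnrnpd (chr5:99978953-99978982, minus strand): gcgctccggagcCACGTGaccgggacgcgc
Hnrnpf (chr6:117907713-117907742, plus strand): cgagcgggcgctCACGTGgcccgaggcgcc
Hnrnph2 (chrX:134601182-134601211, plus strand): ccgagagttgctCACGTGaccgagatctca
Hnrnpm (chr17:33685428-33685457, minus strand): gtcgttcggggtCACGTGagcgcgcaggcg

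The members' windows are rich in G and C, with a median of 68.3% against 52.7% over all windows, which bears on any count of a motif made of these bases. The ETS motif CCGGAAG, searched on both strands, was in 6 of 29 genes (20.7%) against 9.93% of all genes, and the CCAAT box (CCAAT, both strands) in 17 (58.6%) against 41.1%. By window, the ETS motif was in 10 of 41 against 8.86%, and the CCAAT box in 21 of 41 against 37.4%. The CRE motif TGACGTCA was in 0 of 29, against 2.03% of all genes. Among the 10 genes that fell in Bmal1-/- cells, 3 held the E-box and 3 the ETS motif, against 2 and 3 of the other 19 with a window.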

How the data were processed

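RNA-seq was from β-TC6 cells (3 wells each of Bmal1-/-, Clock-/- and WT) and THRAP3 ChIP-seq from 2 Bmal1-/- and 2 WT samples. The authors aligned RNA reads with STAR 2.5.0 to mm10, counted exons with featureCounts 1.5.3 and deposited TPM values, each column summing to 1000000. How TPM was derived, the strand setting and the handling of multi-mapping reads are not given in the sources used here, and TPM keeps no depth. The authors aligned ChIP reads with Bowtie2 2.2.4 and called peaks with HOMER per library over pooled input. The deposited peak files give a signal (tags per 10000000), a fold ratio over input and a score, which served here only to rank peaks. The 2 deposited tables of the authors' own DESeq2 1.22.1 comparisons hold fold changes and p-values and were not used.

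TPM values of at least 1 in at least 3 of 9 libraries were kept, and log2(TPM + 1) was fitted with limma 3.58.1 (R 4.3.3, eBayes with trend) over all 9 libraries without a block. The Benjamini-Hochberg adjustment ran over 15031 genes, with calls at adjusted p under 0.01. Symbols, transcript starts and exons came from GENCODE vM21 (mm10), which held 20499 of 20599 IDs, and promoter windows from RefSeq (GRCm38.p6), with 29 of the 31 genes matched. The 2 without a window, Hnrnpll and Hnrnpul2, are named only. Python 3.11.15, pandas 2.3.3 and matplotlib 3.10.9 were used. The limma fit and the match of peaks to promoters were tested on simulated data, and the other steps were not.

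The genes and lists were chosen with earlier results of these data known. Every SR protein and hnRNP gene is named. Values are given in full for the 4 with the largest change in each direction against WT among called genes, for those past an absolute log2 fold change of 1 and for the 3 that differed most between the knockouts. From each other list the 2 called genes with the largest change in each comparison against WT are named. Genes given beyond that rule, Clk4 and the promoter of Srsf10 among them, and the background of genes at 50 TPM or more, were chosen after values were seen. Alternatives covered scaling, filter, pseudocount, trend, chromosome medians, the groups fitted, a replicate block, each library left out, and the peak threshold, window and number. The eCLIP and input libraries are not analysed here.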

Additional observations from a re-analysis of the deposited data

Results flagged for a closer look

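For 13 genes the effect of the Bmal1 deletion differed from that of the Clock deletion, in that the direct limma comparison of Bmal1-/- with Clock-/- cells passed an adjusted p of 0.01. As log2 fold change of Bmal1-/- over Clock-/- cells, the difference was −1.28 for Srsf12, −1.10 for Srsf5, −0.87 for Srsf10, −0.62 for Srsf7, −0.61 for Srsf3, −0.57 for Srsf6, −0.42 for Srsf2, −0.34 for Srsf11 and 0.23 for Srsf9. Among hnRNP genes it was −0.75 for Hnrnph1, −0.67 for Hnrnpa3, −0.56 for Hnrnpdl and −0.37 for Hnrnpa2b1. In none of the 13 did the Bmal1-/- libraries overlap the Clock-/- libraries, but the genes were called on these same libraries, so this adds no evidence. Of all tested genes, 31.1% were lower and 31.9% higher in Bmal1-/- cells without overlap. Of the 31 genes 18 were not called, against 8334 of 15031 tested genes, so the share called in either direction was near the background. By direction, 38.7% of the 31 genes were called lower and 3.23% higher, against 21.8% and 22.8% of all tested genes. Srsf3, Srsf5, Hnrnpa3 and Hnrnph1 were called lower than WT in Bmal1-/- cells and stood at 0.08, 0.28, 0.11 and 0.04 in Clock-/- cells, not called. Srsf7 and Srsf12 were called higher than WT in Clock-/- cells and stood at −0.16 and −0.28 in Bmal1-/- cells, not called. Whether these differences come from the edited gene or from the 2 clones cannot be told apart.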

How the results depend on the processing

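Of 1485 values of single genes under an alternative, 1364 kept their direction and their side of the threshold, 43 lost the call and 40 gained one. Another 38 changed sign without being called under either setting, and 0 changed sign with a call under either. The number of genes called higher was the least stable. In Bmal1-/- against WT it was 1, and became 2 with chromosome medians subtracted or quantile normalization, 3 with median-of-ratios scaling, 4 with only the 2 groups compared in the fit, and 0 without the variance trend. In Clock-/- against WT it was 3, and 5 with median-of-ratios scaling. In Bmal1-/- against Clock-/- it was 1, and 0 with median-of-ratios scaling, without the trend or with only the 2 groups in the fit. The number called lower in that comparison was 12, and became 17 with median-of-ratios scaling and 16 with quantile normalization. The causes were not tested. With 1 library left out, the number higher ran from 0 to 1 in Bmal1-/- against WT, from 1 to 4 in Clock-/- against WT and from 0 to 3 in Bmal1-/- against Clock-/-, and the number lower from 9 to 11, from 1 to 1 and from 10 to 14. Same-numbered libraries were not paired, since their deviations from the group means correlated at −0.208 to 0.0742, against −0.163 to 0.212 for other numbers. With a replicate block 0 genes were higher and 9 lower in Bmal1-/- against WT, 3 and 1 in Clock-/- against WT, and 0 and 11 in Bmal1-/- against Clock-/-. The ChIP-seq counts come from no test and were not paired. Promoter peaks counted at the gene start alone were at 11 genes in Bmal1-/- replicate 1, and at 0 and 4 in the WT libraries. At a fold over input of at least 8 they were at 10 and 9 genes in Bmal1-/- and at 0 and 1 in WT libraries, beside 13.3%, 11.5%, 0.521% and 4.91% of all tested genes in the same libraries. Cut to the 808 strongest peaks, they were at 1 and 2 in the Bmal1-/- libraries and at 0 in WT replicate 2. TPM keeps no read depth, so the counting error of low genes such as Srsf12 is unknown.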
